A study of Bos taurus with 6 samples.

Results

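The genes described here encode ligands and receptors of platelet-derived growth factor (PDGF), fibroblast growth factor (FGF) and epidermal growth factor (EGF) signalling. They are the ligand genes PDGFA, PDGFC, FGF2, FGF7 and HBEGF and the receptor genes PDGFRA, PDGFRB, FGFR1, FGFR2 and EGFR. They were taken by gene symbol from the table of expression values, and each symbol matched a single entry, which gave 10 of 17663 genes. RNA was measured in bovine fetal fibroblasts (bEFs), connective tissue cells in primary culture, from fetuses aged 50–60 days whose head, limbs, bones and internal organs had been discarded. FT cells came from 3 fetuses with the fat-1 transgene of Caenorhabditis elegans, whose product turns n-6 polyunsaturated fatty acids into n-3 ones. WT cells were from 3 Luxi cattle fetuses, wild-type and without the transgene. Each fetus gave 1 poly(A) library, so that n = 3 per group and the fetus was the replicate. The promoter that drives fat-1, the breed of the FT fetuses and the number of transgenic lines behind them are not given in the sources used here.

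PDGF, FGF and EGF ligands are secreted proteins, or proteins shed from the cell surface, that bring receptor tyrosine kinases together in pairs. The active receptors signal through RAS and ERK, phosphatidylinositol 3-kinase and phospholipase C gamma, and drive the division, migration and survival of cells. Both PDGF receptors are typical of fibroblasts and other mesenchymal cells, whereas FGF7 is made by fibroblasts and acts on a form of FGFR2 found in epithelium. Of the 10 genes, 9 carried the KEGG annotation of the MAPK signaling pathway, as did 253 of the 5683 annotated genes in the table. HBEGF was the exception and was annotated to ErbB signaling together with EGFR.

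The FT libraries held total counts of 63366834 (FT_1), 48167642 (FT_2) and 54204446 (FT_3), and the WT libraries 69777641 (WT_1), 51310741 (WT_2) and 54271927 (WT_3). FT_1 stood apart from FT_2 and FT_3. Its biological coefficient of variation against FT_2 and FT_3, a measure of how far expression differs once counting noise is removed, was 56.1% and 56.8%. The value was 8.24% for FT_2 against FT_3 and 9.97–13.4% for pairs of WT libraries. Of the 13482 genes tested, FT_1 had the highest FPKM of the 6 libraries in 27.1% and the lowest in 29.1%, WT_2 in 22.8% and 15.3%, and the 4 others in 10.7–14.0% and 8.72–18.9%. Among the 10 growth factor genes FT_1 was the highest in 7 and the lowest in 2. Fold changes and counts of calls from edgeR are therefore given with all 6 libraries and without FT_1. FPKM relates the fragments of a gene to its length and to the depth of its library, which allows levels of different genes to be compared.

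Of 8 epithelial marker genes, 7 were higher in FT_1 than in any other library, and the list summed to an FPKM of 441.8 in FT_1, 16.2 in FT_2, 15.8 in FT_3 and 7.92–14.2 in WT cells. The keratin gene KRT5, the most abundant of the list, had 171.5 in FT_1, 2.57 in FT_2, 1.63 in FT_3 and 0 in every WT library. EPCAM, a defining epithelial marker, had 0.57 in FT_1 and 0 in the 5 other libraries. CDH1, which encodes E-cadherin, was present in all 6, with 36.3 in FT_1 and 7.11–13.9 elsewhere. CLDN4 had 3.65, 3.39 and 3.82 in FT_1, FT_2 and FT_3 and 0.09–0.33 in WT cells. Of the 6 epithelial markers tested, only CLDN4 rose in FT cells with all libraries (adjusted p = 0.00184 in edgeR). Without FT_1 5 rose, namely KRT5, KRT8, KRT14, KRT18 and CLDN4, and none fell in either fit. The 10 fibroblast markers, led by VIM, summed to 6881 in FT_1, 17114 in FT_2, 16883 in FT_3 and 17487–18069 in WT cells, none was at 0 in any library, and 7 of the 10 were lowest in FT_1. The fibroblast sum was thus low in FT_1, where the epithelial sum was high. Of the 10 fibroblast markers, 1 rose in FT cells (COL5A1) and 1 fell (FBN1), and without FT_1 4 rose and 2 fell. The additions were COL1A1, DCN and LUM, which rose, and VIM, which fell. The similar sums of FT_2, FT_3 and WT cells thus held genes that went both ways. The 10 smooth muscle and pericyte markers, led by ACTA2, summed to 2493, 3771 and 3632 in FT_1, FT_2 and FT_3 and to 1091–1216 in WT cells, and 6 of them rose in FT cells and 1 fell, or 8 and 1 without FT_1, where 20.1% and 18.9% of all tested genes did so with all libraries and 30.6% and 31.5% without FT_1. In bulk RNA, fewer cells of a type and less RNA per cell cannot be told apart, and the part of these marker differences in the results for growth factor genes was not tested.

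Of the other lists, the 3 mesothelial markers found summed to 199.7 in FT_1, 45.0 in FT_2, 46.3 in FT_3 and 2.32–3.48 in WT cells, almost all of it MSLN, with WT1 at 0 in every FT library. Adipocyte markers, led by FABP4, summed to 4.90, 14.4 and 15.7 in FT_1, FT_2 and FT_3 and to 139.6–156.1 in WT cells, with ADIPOQ at 0 in every FT library and in WT_2. Neural and glial markers, led by S100B, summed to 5.83–15.0 over the 6 libraries, and leukocyte markers, led by CD14, to 3.39–7.98, with CD3E at 0 in all libraries but WT_3. The sums were at most 1.49 for endothelium, led by PECAM1, 2.05 for skeletal muscle, led by MYF5, and 2.29 for cartilage, led by SOX9. CLDN5 was at 0 in all libraries but FT_1, MYH3 at 0 in FT_1 and FT_3, and COL2A1 at 0 in all libraries but FT_1.

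The comparison of FT with WT cells asked which genes differ between the groups. The transgene cannot be told apart from breed or line in it, as these are not given for the FT fetuses. edgeR on the raw counts tested 13482 genes, with Benjamini-Hochberg adjustment over all of them, and a gene passed at an adjusted p under 0.05. Of the 10 growth factor genes, 4 rose in FT cells (PDGFA, FGF7, PDGFRA and FGFR1), where 20.1% of all tested genes rose, and FGF2 alone fell, where 18.9% fell. PDGFC, HBEGF, PDGFRB, FGFR2 and EGFR did not pass. Without FT_1, 5 of the 10 genes rose against 30.6% of 13765 tested genes, and 2 fell against 31.5%. The additions were PDGFRB, which rose, and FGFR2, which fell. The median log2 fold change of the 10 genes was 1.03 with all libraries and 0.43 without FT_1, and that of all tested genes was 0.03 and -0.02.

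The FPKM of all FT libraries exceeded that of all WT libraries for 4 of the 10 genes, against 21.8% of all tested genes, and fell short of it for 1, against 36.9%. These shares depend on scaling, because the FPKM values summed to 390892–407533 in FT libraries and 453721–467653 in WT libraries. Over all genes, edgeR gave 2714 rises and 2547 falls, and with library totals in place of TMM factors it gave 2049 rises and 3394 falls. The median log2 fold change then moved from 0.03 to -0.12. Limma on log2(FPKM + 1), where the median was also -0.12, called 1837 rises and 3573 falls, or 15.0% and 29.2% of 12247 tested genes. It passed the same 5 growth factor genes in the same directions (adjusted p of 6.36e-04 for FGF2 to 0.0389 for FGF7), and so did edgeR with library totals. On log2(TPM + 1), where each library has the same sum, limma called 2794 rises and 2438 falls, or 22.8% and 19.9%, and again the same 5 growth factor genes. The counts also depended on single libraries. The fits without WT_1, WT_2 and WT_3 gave 1516, 1613 and 1796 rises and 1531, 1570 and 1741 falls. Of the growth factor genes, 2 rose without WT_1 or without WT_2, and 3 without FT_2 or without WT_3.

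**Figure D1:**
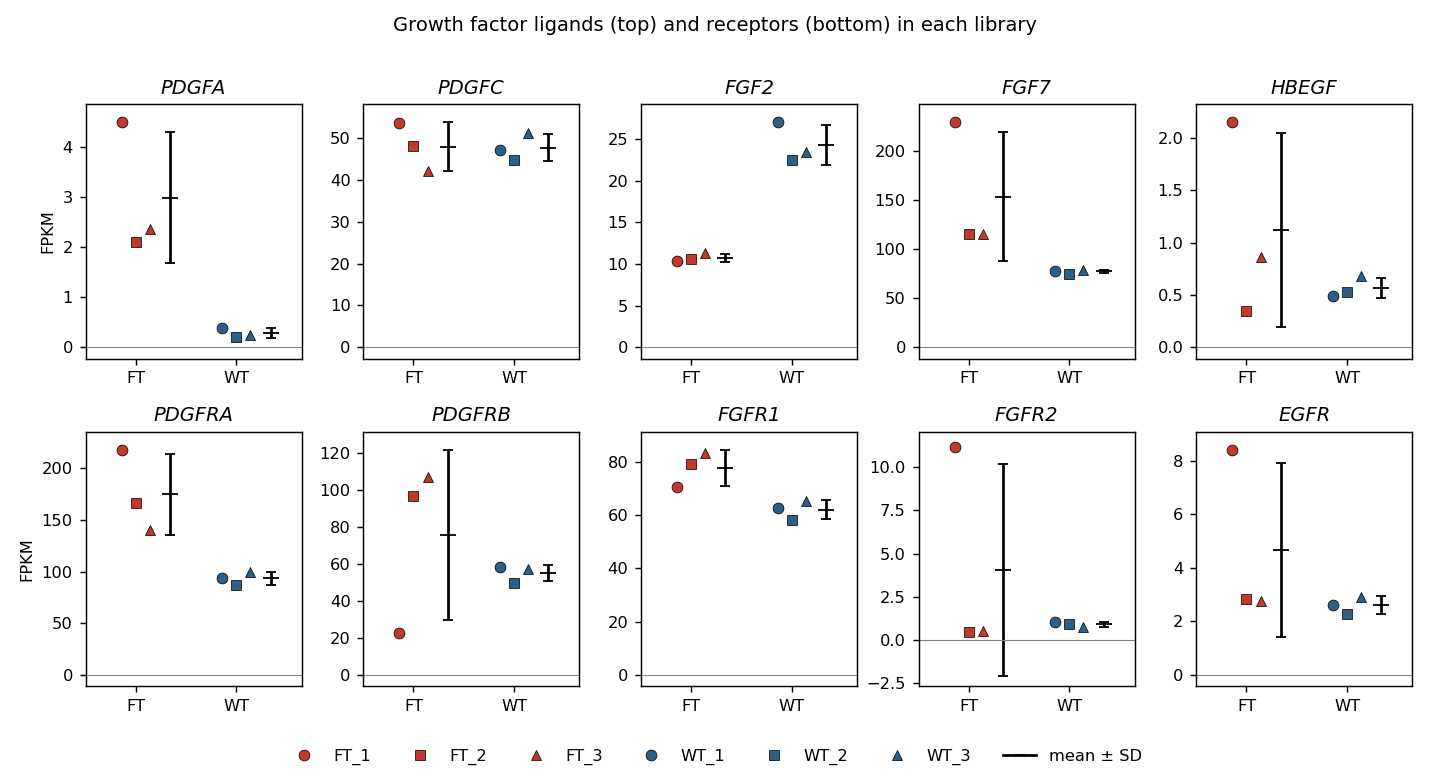
FPKM of the 5 ligand genes (top) and 5 receptor genes (bottom) in each library, with FT libraries in red and WT libraries in blue; black bars give the mean ± SD of 3 libraries, and each panel has its own linear axis. FGF2 is near 10.7 in all FT libraries and above 22 in all WT libraries. FT_1 (red circle) lies far from FT_2 and FT_3 for PDGFA, FGF7, HBEGF, PDGFRB, FGFR2 and EGFR.

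Among the ligands, PDGFA had the largest fold change of the genes that passed. It encodes the PDGF A chain, a ligand of PDGFRA, and lies on chromosome 25 at 42013602 to 42030396 (ENSBTAG00000014541, plus strand) in the authors' table. Coordinates here are those of that table, whose cattle genome build is not given in the sources used here. The FPKM of PDGFA was 4.49, 2.10 and 2.37 in FT_1, FT_2 and FT_3, and 0.39, 0.20 and 0.24 in WT_1, WT_2 and WT_3. All FT libraries lay above all WT libraries, and FT_1 was the highest. The counts were 473–1326 in FT and 49–129 in WT cells. The mean FPKM was 2.99 ± 1.31 (SD, n = 3) in FT and 0.277 ± 0.10 in WT cells, a ratio of 10.8. The log2 fold change was 3.54 (standard error, SE, 0.42, adjusted p = 0.00213), and 3.13 without FT_1 (SE 0.25, adjusted p = 3.86e-06).

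FGF2 encodes basic FGF, a ligand without a classical secretion signal that binds FGFR1 and heparan sulfate (ENSBTAG00000005691, chromosome 17, 34801330 to 34860849, minus strand). Its FPKM was 10.35, 10.59 and 11.29 in FT_1, FT_2 and FT_3, and 26.97, 22.47 and 23.42 in WT_1, WT_2 and WT_3. All FT libraries were low and close together, FT_1 included, and none reached the WT range. The mean was 10.7 ± 0.488 (SD, n = 3) in FT and 24.3 ± 2.37 in WT cells, a ratio of 0.442. FGF2 fell by 1.02 on the log2 scale (SE 0.10, adjusted p = 0.00134), and by 0.98 without FT_1 (SE 0.09, adjusted p = 1.01e-05).

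FGF7, the keratinocyte growth factor gene (ENSBTAG00000051898, chromosome 10, 60791420 to 60854483, minus strand), went the other way. Its FPKM was 228.8, 115.7 and 115.4 in FT_1, FT_2 and FT_3, and 78.0, 75.1 and 78.3 in WT_1, WT_2 and WT_3. Every FT library lay above every WT library, and FT_1 had 1.98 times the mean of FT_2 and FT_3. The log2 fold change was 1.14 (SE 0.28, adjusted p = 0.0215) and, without FT_1, 0.75 (SE 0.06, adjusted p = 3.79e-06). With 1 WT library left out the adjusted p passed 0.05, at 0.0799 without WT_1, 0.085 without WT_2 and 0.0754 without WT_3, while the log2 fold change stayed between 1.12 and 1.15.

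PDGFC encodes a PDGF chain that is activated by cleavage outside the cell and binds PDGFRA (ENSBTAG00000043959, chromosome 17, 42227069 to 42478276, plus strand). Its FPKM was 53.6, 48.1 and 42.0 in FT_1, FT_2 and FT_3, and 47.1, 44.7 and 51.1 in WT_1, WT_2 and WT_3. The groups overlapped, and no library of either group stood apart. The log2 fold change was 0.17 (SE 0.11, adjusted p = 0.258), and 0.09 without FT_1 (SE 0.09, adjusted p = 0.393). HBEGF, whose product is an EGFR ligand shed from the membrane (ENSBTAG00000021766, chromosome 7, 51533600 to 51544783, minus strand), had an FPKM of 2.15, 0.35 and 0.86 in FT_1, FT_2 and FT_3, and 0.49, 0.53 and 0.68 in WT_1, WT_2 and WT_3. FT_1 and FT_3 were above the WT range and FT_2 below it, so the groups overlapped. HBEGF rested on 29–225 counts per library and did not pass (log2 fold change 1.13, SE 0.64, adjusted p = 0.208), nor without FT_1 (0.29, SE 0.45, adjusted p = 0.605).

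**Figure D2:**
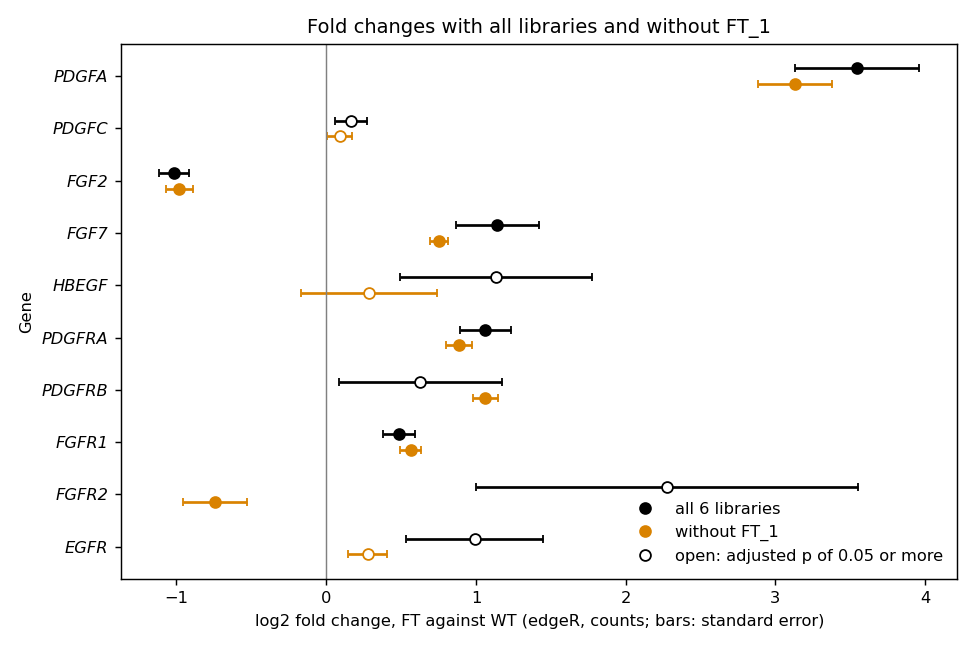
Log2 fold change of FT against WT cells from edgeR for each of the 10 genes, with all 6 libraries (black) and without FT_1 (orange); bars are standard errors, and open circles mark an adjusted p of 0.05 or more. FGFR2 changes sign, from 2.28 to -0.75, and the standard error of PDGFRB falls from 0.54 to 0.08.

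Among the receptors, PDGFRA (ENSBTAG00000007173, chromosome 6, 69723655 to 69771549, plus strand), whose product binds the A and C chains, rose in FT cells. Its FPKM was 217.7, 166.4 and 140.6 in FT_1, FT_2 and FT_3, and 93.5, 87.0 and 99.7 in WT_1, WT_2 and WT_3. All FT libraries lay above all WT libraries. The mean was 174.9 ± 39.3 (SD, n = 3) in FT and 93.4 ± 6.36 in WT cells, and the log2 fold change was 1.06 (SE 0.17, adjusted p = 0.0053), or 0.89 without FT_1 (SE 0.08, adjusted p = 1.28e-05).

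PDGFRB, the receptor of the B and D chains and a marker of pericytes (ENSBTAG00000002804, chromosome 7, 61474501 to 61511284, minus strand), split the FT group. Its FPKM was 22.8, 96.7 and 107.1 in FT_1, FT_2 and FT_3, and 58.1, 49.9 and 57.0 in WT_1, WT_2 and WT_3. FT_2 and FT_3 lay above every WT library and FT_1 below every WT library. FT_1 had 0.224 times the mean of FT_2 and FT_3. With all libraries PDGFRB did not pass (log2 fold change 0.63, SE 0.54, adjusted p = 0.397), and without FT_1 it rose by 1.06 (SE 0.08, adjusted p = 3.66e-06). Of the 10 smooth muscle and pericyte markers, 3 were lowest and 2 highest in FT_1. The pericyte gene RGS5 had 0.03, 8.49 and 7.88 in FT_1, FT_2 and FT_3, against 4.21–5.15 in WT cells, MCAM had 0.81, 0.31 and 0.45, against 0.02–0.06, CSPG4 2.46, 3.21 and 3.19, against 9.39–11.3, and NOTCH3 1.13, 0.82 and 0.89, against 0.91–1.14. Of the 10 fibroblast markers, 7 were lowest in FT_1. DCN had 1803, 4092 and 3769 in FT_1, FT_2 and FT_3, against 2054–2299 in WT cells. The values were 551, 2759 and 2559, against 1116.7–1223.5, for LUM and 914, 2611 and 2689, against 2212–2331, for COL1A1. COL5A1 was above the WT range in every FT library, COL1A2, COL3A1, VIM and FBN1 were below it, and THY1 and FAP overlapped it. The part of such markers in the PDGFRB values was not tested.

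FGFR1 encodes the main FGF receptor of mesenchymal cells (ENSBTAG00000015457, chromosome 27, 33549267 to 33599083, minus strand). Its FPKM was 70.3, 79.2 and 83.3 in FT_1, FT_2 and FT_3, and 62.5, 58.1 and 65.1 in WT_1, WT_2 and WT_3. Every FT library lay above the WT range, and FT_1 was the closest to it. The log2 fold change of 0.49 (SE 0.11, adjusted p = 0.0148) was the smallest of the genes that passed, and it was 0.56 without FT_1 (SE 0.07, adjusted p = 7.64e-05). The adjusted p was 0.0515 without FT_2, 0.066 without WT_1 and 0.0659 without WT_2.

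FGFR2, a receptor of FGF7 and FGF10 (ENSBTAG00000014064, chromosome 26, 41450745 to 41558092, minus strand), had an FPKM of 11.15, 0.44 and 0.52 in FT_1, FT_2 and FT_3, and 1.04, 0.94 and 0.76 in WT_1, WT_2 and WT_3. FT_1 was far above all other libraries, while FT_2 and FT_3 were below every WT library. FT_1 had 3484 counts of FGFR2, FT_2 106 and FT_3 140, so FT_1 had 23.2 times the mean FPKM of FT_2 and FT_3. The log2 fold change was 2.28 with all libraries (SE 1.27, adjusted p = 0.203) and -0.75 without FT_1 (SE 0.21, adjusted p = 0.0121). The direction therefore rested on FT_1, the library with the high epithelial keratins (KRT5 171.5, KRT14 128.1 and KRT8 84.1), whose part in the FGFR2 level was not tested.

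EGFR, the receptor of HBEGF (ENSBTAG00000011628, chromosome 22, 905960 to 1121554, minus strand), had an FPKM of 8.40, 2.83 and 2.77 in FT_1, FT_2 and FT_3, and 2.62, 2.27 and 2.92 in WT_1, WT_2 and WT_3. Outside FT_1 the values of both groups overlapped, and FT_1 had 3.0 times the mean of FT_2 and FT_3. EGFR did not pass with all libraries (log2 fold change 0.99, SE 0.46, adjusted p = 0.134) or without FT_1 (0.28, SE 0.13, adjusted p = 0.0871).

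**Figure D3:**
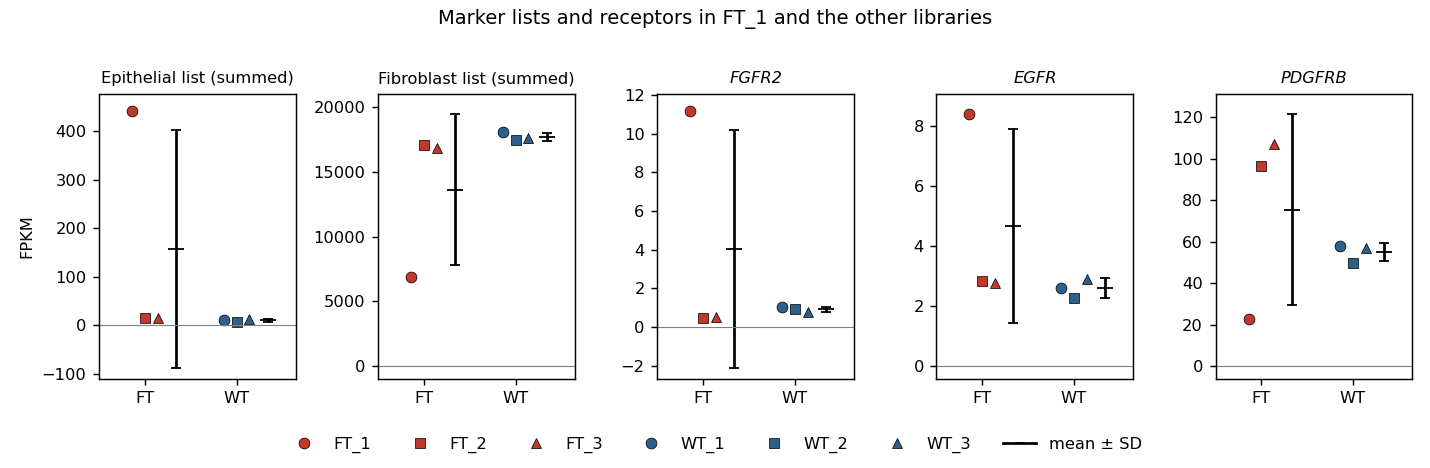
Summed FPKM of the epithelial and fibroblast marker lists beside the FPKM of FGFR2, EGFR and PDGFRB in each library, on linear axes; black bars give the mean ± SD of 3 libraries per group. FT_1 (red circle) is high for the epithelial list, FGFR2 and EGFR and low for the fibroblast list and PDGFRB.

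Ordered by mean FPKM, the levels in WT cells ran from PDGFRA (93.4) through FGF7 (77.1), FGFR1 (61.9), PDGFRB (55.0), PDGFC (47.6), FGF2 (24.3), EGFR (2.60), FGFR2 (0.913) and HBEGF (0.567) to PDGFA (0.277). The only neighbours in this order whose libraries overlapped were PDGFRB and PDGFC. In FT cells the order was PDGFRA (174.9), FGF7 (153.3), FGFR1 (77.6), PDGFRB (75.5), PDGFC (47.9), FGF2 (10.7), EGFR (4.67), FGFR2 (4.04), PDGFA (2.99) and HBEGF (1.12). Neighbours overlapped there between PDGFRA and FGF7, among FGFR1, PDGFRB and PDGFC, and from EGFR to HBEGF, so that these steps did not exceed the spread between libraries. Without FT_1 the means in FT cells were 153.5 for PDGFRA, 115.5 for FGF7, 101.9 for PDGFRB, 81.3 for FGFR1, 45.0 for PDGFC, 10.9 for FGF2, 2.80 for EGFR, 2.23 for PDGFA, 0.605 for HBEGF and 0.48 for FGFR2, so that PDGFRB passed FGFR1 and FGFR2 became the lowest, and of neighbours only HBEGF and FGFR2 overlapped in FT_2 and FT_3. PDGFA was thus the lowest of the 10 in WT cells and above HBEGF on average in FT cells, with or without FT_1.

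Ratios of FPKM within a library put paired genes on a common scale. There were 5 ratios, each compared by a two-sided exact permutation test of 3 libraries against 3, which cannot give a p under 0.10. The ratio of PDGFA to PDGFC was 0.0837, 0.0437 and 0.0564 in FT_1, FT_2 and FT_3, and 0.00829, 0.00447 and 0.0047 in WT_1, WT_2 and WT_3. The PDGFC transcript thus remained the more abundant in all 6 libraries. The log2 ratio was 3.40 higher in FT cells (exact p = 0.10, adjusted over the 5 ratios 0.25), or 3.15 higher without FT_1, and 1.59 higher when 1 was added to each FPKM. The ratio of FGF2 to FGF7 was 0.0452, 0.0916 and 0.0978 in FT cells and 0.346, 0.299 and 0.299 in WT cells. Every FT library was below every WT library, and the log2 difference was -2.09 (exact p = 0.10, adjusted 0.25), or -1.73 without FT_1.

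In the receptor ratios FT_1 was the library that stood out. The ratio of PDGFRA to PDGFRB was 9.54, 1.72 and 1.31 in FT_1, FT_2 and FT_3, and 1.61–1.75 in WT cells. FT_2 lay within the WT range and FT_3 below it. The log2 difference was 0.71 (exact p = 0.90) and was -0.18 without FT_1. FGFR1 exceeded FGFR2 by 6.30 times in FT_1, 180.1 times in FT_2 and 160.3 times in FT_3, and by 60.1–85.7 times in WT cells. The log2 difference was -0.27 (exact p = 1.0), and without FT_1 it was 1.32 (exact p = 0.10, the smallest p of 2 libraries against 3). EGFR was below its partner receptor ERBB2 in every library, with ratios of 0.405, 0.187 and 0.200 in FT_1, FT_2 and FT_3 and 0.250–0.286 in WT cells. The log2 difference was -0.13 (exact p = 0.90). It was -0.48 without FT_1 (exact p = 0.10, again the smallest possible), 0.074 without FT_2 and 0.026 without FT_3.

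**Figure D4:**
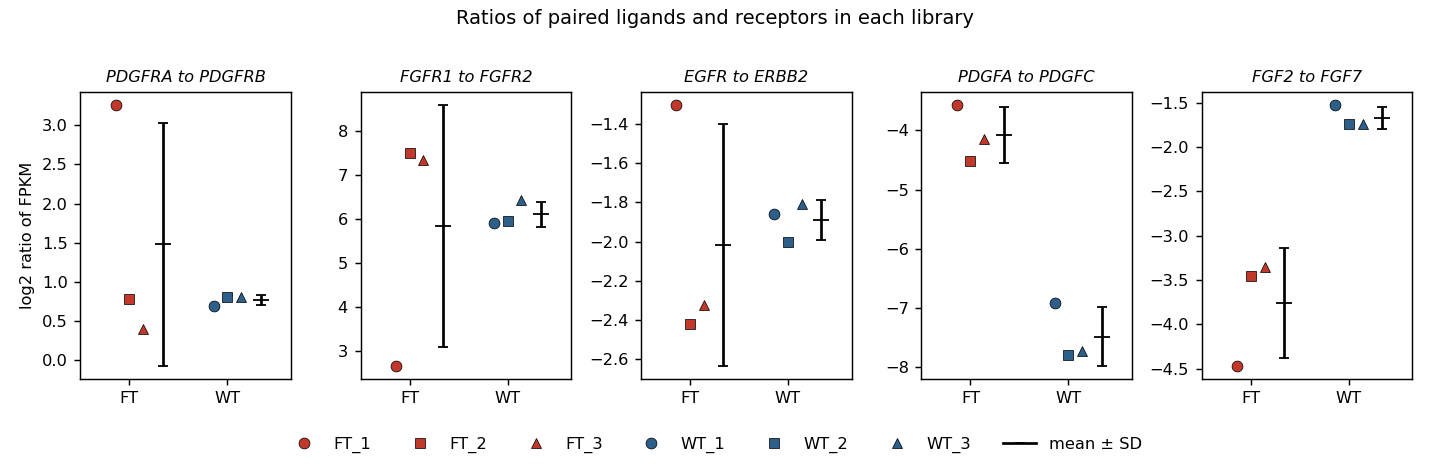
Log2 ratios of FPKM for the 5 pairs of genes in each library, with the mean ± SD of 3 libraries per group in black; each panel has its own axis. The FT and WT libraries are separate for PDGFA to PDGFC and FGF2 to FGF7, and FT_1 lies apart from FT_2 and FT_3 in all receptor pairs.

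The gene most like each of the 10 was taken as the highest Pearson r of log2(CPM + 1) over the 6 libraries, among 10315 genes whose FPKM averaged 1 or more. Over so few libraries many genes reach a high r, and the names serve as a description. The nearest profiles were ATG13 for PDGFA (r = 0.999, with 965 genes over 0.95), ZDHHC20 for FGF2 (0.999, 886 genes), DPYSL4 for FGF7 (1.0, 655 genes), DPAGT1 for PDGFRA (0.999, 807 genes) and PPP1R16A for FGFR1 (0.999, 625 genes). For genes whose values turned on FT_1 they were COL6A1 for PDGFRB (0.999, 285 genes), DTX3 for FGFR2 (0.998, 256 genes), ZNF202 for EGFR (0.999, 338 genes) and MSL2 for HBEGF (0.993, 49 genes). PDGFC had the fewest genes alike, with 11 over 0.95, and IFT122 was the nearest (0.984).

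Other genes of these pathways were read from a list of 129 symbols, of which 111 were found, NRG1 as a pair of entries. The list also held vascular endothelial growth factor (VEGF) ligands and receptors, placed with the PDGF family, and the receptor genes KIT and CSF1R. Of the 99 entries tested, 33 rose and 10 fell, and the median log2 fold change was 0.37, and without FT_1 50 rose and 27 fell at a median of 0.34. Over all genes, 20.1% rose and 18.9% fell with all libraries, 30.6% and 31.5% without FT_1, at medians of 0.03 and -0.02, and the lists below are to be read beside these shares. Limma on log2(FPKM + 1), which called 15.0% and 29.2% of all genes, gave 25 rises and 19 falls among 95 pathway genes, at a median of 0.17. On log2(TPM + 1), with 22.8% and 19.9% of all genes, it gave 33 rises and 10 falls, at a median of 0.36, so that these counts moved with the scaling. Calls below are those of edgeR unless limma is named. The numbers also moved with single WT libraries, to 18 rises and 3 falls without WT_1, 18 and 4 without WT_2, and 22 and 5 without WT_3. Without FT_2, 5 fell.

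Among 14 other ligands tested, 4 rose (PDGFD, VEGFA, FGF10 and NRG1) and EREG fell, at a median log2 fold change of 1.04, and without FT_1 7 rose and 3 fell at a median of 0.76. Limma called 2 rises and the fall of EREG on FPKM and on TPM, and PDGFD (adjusted p = 0.0804 and 0.0558) and NRG1 (0.27 and 0.22) did not pass there. FGF10, which like FGF7 signals to epithelial FGFR2, had an FPKM of 34.9, 28.7 and 23.3 in FT_1, FT_2 and FT_3 and 11.7–12.6 in WT cells. All FT libraries were above the WT range (log2 fold change 1.42, SE 0.15, adjusted p = 0.00147, and 1.27 without FT_1). VEGFA, the most abundant of the list, had 151.3, 86.8 and 97.9 in FT and 57.2–62.0 in WT cells (1.07, SE 0.21, adjusted p = 0.01, and 0.81 without FT_1). EREG, the EGF family ligand epiregulin, had 8.36, 6.01 and 5.05 in FT and 12.0–13.8 in WT cells, and it fell by 0.83 on the log2 scale (SE 0.19, adjusted p = 0.0173), or 1.04 without FT_1.

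Several ligands were present almost only in FT_1. PDGFB had an FPKM of 8.03 in FT_1, 0.06 in FT_3 and 0 in the other libraries, FGF21 had 1.70 in FT_1 and 0 elsewhere, and FGF19 had 8.33 in FT_1 and 0.10–0.23 elsewhere. None of them passed the edgeR filter on low counts. The larger NRG1 entry had 10.8, 0.24 and 0.20 in FT_1, FT_2 and FT_3 and at most 0.07 in WT cells (log2 fold change 6.86, SE 2.15, adjusted p = 0.0474, and 2.82 without FT_1, adjusted p = 0.0209). PDGFD, a PDGFRB ligand, ran the other way, with 13.2, 39.4 and 37.7 in FT_1, FT_2 and FT_3 against 11.4–13.3 in WT cells (1.43, SE 0.41, adjusted p = 0.0381, and 1.79 without FT_1). PDGFD and PDGFRB were thus both higher in FT_2 and FT_3 than in any WT library, and neither was in FT_1.

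Of 9 other receptors tested, 2 rose and none fell with all libraries, and 5 rose and 2 fell without FT_1. The median was 0.94 and 0.64. FGFRL1, an FGF receptor without a kinase domain, had 4.89, 1.75 and 1.97 in FT_1, FT_2 and FT_3 and 0.24–0.48 in WT cells (log2 fold change 3.09, SE 0.51, adjusted p = 0.00579, and 2.48 without FT_1). ERBB2 had 20.7, 15.2 and 13.9 in FT and 9.09–10.2 in WT cells (0.94, SE 0.15, adjusted p = 0.00565, and 0.77 without FT_1). All FT libraries were above the WT range for both. FGFR4 had 0 counts in FT_1, against an FPKM of 2.47 in FT_2 and 2.95 in FT_3 and 0.05–0.22 in WT cells. It passed without FT_1 (4.73, adjusted p = 6.34e-06) but not with all libraries (4.10, SE 1.82, adjusted p = 0.124). PDGFRL, the most abundant of this list, had 8.40 in FT_1, 40.5 and 34.7 in FT_2 and FT_3 and 25.2–28.3 in WT cells. It passed without FT_1, with a rise of 0.64, but not with all libraries (0.21, adjusted p = 0.784).

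Of 23 genes that release, carry or modify ligands, 9 rose and 2 fell (median log2 fold change 0.85), and without FT_1 13 rose and 7 fell (median 0.61). Limma gave 7 rises and 4 falls on FPKM and 10 and 1 on TPM. The heparan sulfate proteoglycan genes GPC1 and SDC1 were among those that rose, as were FLRT3, whose product binds FGF receptors, and SULF2, which encodes an enzyme that trims heparan sulfate. GPC1 had an FPKM of 111.8, 151.0 and 157.0 in FT_1, FT_2 and FT_3 and 54.8–59.1 in WT cells (log2 fold change 1.46, SE 0.16, adjusted p = 0.00168, and 1.60 without FT_1). SULF2 had 53.3, 57.0 and 56.2 in FT and 26.8–29.6 in WT cells (1.14, SE 0.08, adjusted p = 7.55e-04, and 1.18 without FT_1), and its FT values were as close together as its WT values. FLRT3 had 30.2, 8.74 and 8.23 in FT_1, FT_2 and FT_3 and 2.78–3.05 in WT cells (2.58, and 1.71 without FT_1). SDC1 had 83.0, 40.5 and 39.7 in FT and 23.1–23.5 in WT cells (1.38, and 0.95 without FT_1). Its relatives SDC2, SDC3 and SDC4 did not all go the same way. SDC2 rose (1.01, and 1.18 without FT_1), whereas SDC3 and SDC4 did not pass with all libraries (-0.50 and 0.05). Without FT_1 SDC3 and SDC4 fell in edgeR (-0.83, adjusted p = 2.97e-05, and -0.26, adjusted p = 0.0154). The genes that fell were PLAT, which encodes tissue plasminogen activator (-0.79, adjusted p = 0.0134, and -0.63 without FT_1), and ADAM12, which encodes a metalloprotease that sheds EGF family ligands (-0.61, adjusted p = 0.0459, and -0.81 without FT_1). In limma ADAM12 passed on FPKM (adjusted p = 0.0199) but not on TPM (0.0508). CD9, the most abundant of this list, had 327.4–454.5 in FT and 595.2–620.1 in WT cells and was lower in every FT than in every WT library. In edgeR it passed without FT_1, with a log2 fold change of -0.28, but not with all libraries (-0.42, adjusted p = 0.0703). In limma it passed with all libraries on FPKM (adjusted p = 0.0193) but not on TPM (0.0916).

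In the relay of signals from the receptors, 9 of 23 genes rose and 4 fell, with a median log2 fold change of 0.28. Without FT_1 14 rose and 5 fell, with a median of 0.34. The list held 14 genes of adaptors and lipid signalling, of which 7 rose and 2 fell, or 9 and 3 without FT_1. The other 9 belonged to the RAS to ERK cascade, and 2 rose and 2 fell, or 5 and 2 without FT_1. Limma gave 6 rises and 5 falls on FPKM and 11 and 4 on TPM. MAPK3, which encodes ERK1, had an FPKM of 55.8, 55.5 and 55.1 in FT_1, FT_2 and FT_3 and 29.9–31.2 in WT cells. FT_1 did not stand apart here (log2 fold change 1.03, SE 0.07, adjusted p = 5.78e-04, and also 1.03 without FT_1). PLCG1, the phospholipase C gamma gene, rose by 1.13 (SE 0.14, adjusted p = 0.00231), GAB1 by 0.59 and CRKL by 0.55, while AKT1, the most abundant of this list, rose by 0.53. Without FT_1 these rises were 1.02, 0.48, 0.48 and 0.65. Upstream of ERK, NRAS had 17.3, 18.4 and 21.4 in FT and 38.0–42.2 in WT cells and fell by 0.94 on the log2 scale (SE 0.11, adjusted p = 0.00225), or 0.86 without FT_1. MAP2K1, which encodes MEK1, fell by 0.43. Of the adaptor and lipid signalling genes, SHC1 fell by 0.43 and the phosphatidylinositol 3-kinase gene PIK3CA by 0.36. Without FT_1 the falls of MAP2K1, SHC1 and PIK3CA were 0.40, 0.33 and 0.31. Transcripts of consecutive steps of the cascade thus differed in opposite directions, and FPKM gives no measure of protein or of phosphorylation.

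Of 13 genes listed as negative regulators of receptor signalling, 5 rose and 2 fell (median 0.36). Without FT_1 6 rose and 3 fell (median 0.43). Limma gave 5 rises and 3 falls on FPKM and 5 and 1 on TPM. Of the LRIG genes, which encode membrane proteins of a family that binds receptor tyrosine kinases, LRIG1 and LRIG3 rose. Whether the product of each LRIG gene inhibits these receptors was not tested. LRIG2 did not pass (log2 fold change 0.28, adjusted p = 0.132, and also 0.28 without FT_1, adjusted p = 0.0777). LRIG3 had an FPKM of 25.4, 18.6 and 16.4 in FT_1, FT_2 and FT_3 and 6.23–6.86 in WT cells (log2 fold change 1.78, SE 0.16, adjusted p = 0.00115, and 1.59 without FT_1). LRIG1 had 25.5, 21.1 and 21.7 in FT and 9.50–12.9 in WT cells (1.16, SE 0.14, adjusted p = 0.00216, and 1.09 without FT_1). CBL, a ubiquitin ligase gene, rose by 1.15 (adjusted p = 0.0399, and 0.93 without FT_1) and the receptor phosphatase gene PTPRJ by 1.01 (adjusted p = 0.00562, and 1.16 without FT_1). ERRFI1, an inhibitor of EGFR and the most abundant of the list, had 117.4, 108.9 and 119.5 in FT and 154.4–170.7 in WT cells and fell by 0.32 (SE 0.09, adjusted p = 0.0306, and also by 0.32 without FT_1). SOCS5 fell by 0.29 (adjusted p = 0.0459, and by 0.26 without FT_1), and in limma it passed on FPKM (adjusted p = 0.00861) but not on TPM (0.0781).

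The 17 feedback and target genes of ERK gave 4 rises and 1 fall with all libraries, at a median of -0.10, and 5 rises and 7 falls without FT_1, at a median of -0.21. With all libraries limma gave 3 rises and 6 falls among 16 of them, at a median of -0.25, on FPKM, and 3 and 3, at a median of -0.085, on TPM. Of 5 feedback inhibitor genes of the Sprouty and SPRED families, SPRY1 and SPRED2 rose by 0.93 (SE 0.13, adjusted p = 0.00317) and 0.87 (SE 0.14, adjusted p = 0.00505), or 0.99 and 0.98 without FT_1. The log2 fold changes of SPRED1, SPRY2 and SPRY4 were -0.37, -0.10 and -0.17, and these genes did not pass. Without FT_1 they were -0.49, -0.21 and -0.28, and only SPRED1 passed. DUSP4 rose by 3.69 (SE 0.78), or 2.93 without FT_1. It had 183, 43 and 52 counts in FT_1, FT_2 and FT_3 and 2–12 in WT cells. Over so few counts in WT cells the size of its fold change is uncertain, and limma did not test it. IER3, the most abundant of the list, had an FPKM of 142.8, 251.6 and 233.3 in FT_1, FT_2 and FT_3 and 66.4–95.1 in WT cells (log2 fold change 1.56, SE 0.26, adjusted p = 0.00596, and 1.78 without FT_1). DUSP5, an ERK phosphatase gene, had 1.69, 0.74 and 0.85 in FT and 4.51–5.79 in WT cells and fell by 2.14 (SE 0.35, adjusted p = 0.00546), or 2.58 without FT_1. Besides DUSP5, the genes CCND1, FOSL1, DUSP6, ETV4 and SPRED1 were below the WT range in every FT library. These 6 of 17 genes are a share close to the 36.9% of all tested genes of which this held. In edgeR the 5 genes besides DUSP5 did not pass with all libraries, at log2 fold changes of -0.96, -1.25, -0.62, -0.61 and -0.37. Without FT_1 they passed, at -1.47, -1.90, -0.94, -0.82 and -0.49. In limma with all libraries the 5 passed on FPKM, at adjusted p of 0.0233 for ETV4 to 0.0353 for DUSP6, and on TPM CCND1 (0.0468) and FOSL1 (0.0384) did. These 5 genes are named after their values were seen, as are SPRY2, SPRY4, LRIG2, SDC2, SDC3, SDC4, FGFR4, PDGFD, DUSP4, PDGFB, FGF19 and FGF21.

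**Figure D5:**
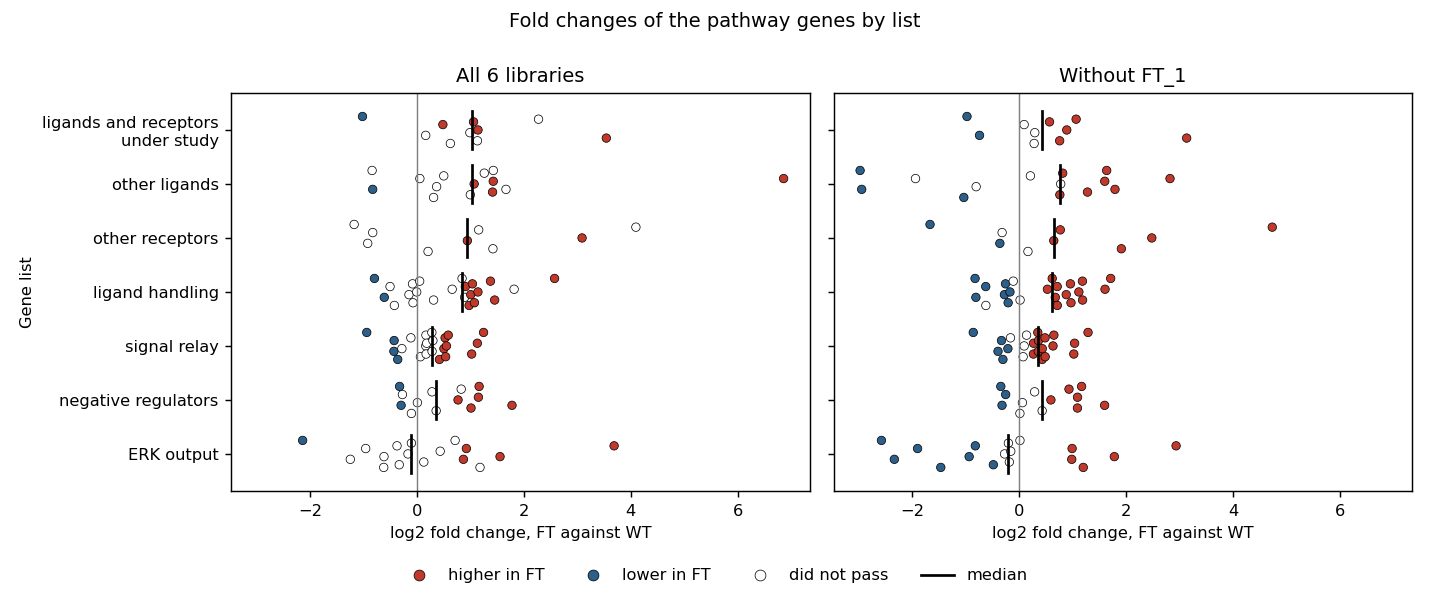
Log2 fold change of FT against WT cells from edgeR for each tested gene of the 10 ligand and receptor genes and of the 6 other lists, with all 6 libraries (left) and without FT_1 (right); filled circles passed at an adjusted p under 0.05 and vertical bars are medians. Without FT_1 the ERK output list of 17 genes has 7 falls where it had 1, and its median is -0.21. The share of all tested genes that fell also goes from 18.9% to 31.5%.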

How the data were processed

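RNA-seq of 6 libraries was analysed from 1 table. The authors mapped reads with HISAT to a UCSC genome and estimated expression with StringTie and edgeR, and the submitters' notes name HISAT2 2.0, StringTie 1.3.0 and Bowtie 0.12.2. The only genome build in those notes is a mouse build, although the gene identifiers are bovine. The raw counts per gene were used as deposited, with no normalization. The FPKM values were deposited by the authors in the same table. How reads of overlapping genes or close copies were counted is not stated, so such genes carry that uncertainty.

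Counts were compared with edgeR 4.0.16 (R 4.3.3; TMM factors, filterByExpr, quasi-likelihood test, group as the only term, Benjamini-Hochberg adjustment over all tested genes), and log2(FPKM + 1) with limma 3.58.1 where the FPKM averaged 0.5 or more. DESeq2 1.42.0 was run as an alternative count model. Ratios of FPKM were compared by exact permutation tests. Named genes were the 10 genes; per list the most abundant gene and up to 4 rises and 4 falls with the largest fold change among genes that passed, did not overlap in FPKM and had a mean FPKM of at least 1; the most similar genes; and markers. The genes and lists were chosen with earlier results of these data known. Alternatives covered the count model, scaling, filter, pseudocount, threshold, replicate block and each library left out. The limma fit without FT_1 was added after the data were seen.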

Additional observations from a re-analysis of the deposited data

How the results depend on the processing

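Of the 10 genes, PDGFA, FGF2 and PDGFRA kept direction and side of the threshold under all 16 alternatives (log2 fold changes of 1.34 to 3.87, -1.17 to -0.94 and 0.71 to 1.19), and EGFR and HBEGF passed under none. FGFR2 reversed to -0.75 in edgeR and -0.37 in limma without FT_1, ranged from -0.75 to 2.80 over libraries left out, and DESeq2 gave it no adjusted p. PDGFC reversed to -0.080 in limma without FT_1, and PDGFRB passed at 0.88 there. FGF7 missed 0.05 in limma with no filter (adjusted p = 0.0582). With 1 library left out, 1516–4215 genes rose and 1531–4337 fell, as did 2–5 and 1–2 of the 10 genes and 18–50 and 3–27 of the other pathway genes. At the study's threshold, 1378 genes rose and 1208 fell, and of the pathway genes 2 fell. In limma, 1744 genes rose with no filter, and 5118 fell without FT_1, with 2 of the 10 genes. Of the pathway genes, limma called 19 falls with either pseudocount and also with no filter, where 21 rose, and 30 falls without FT_1, but 10 on log2(TPM + 1), as edgeR did, and library totals gave 16 falls. The difference in log2 ratio of PDGFA to PDGFC, 3.40, was 1.59 with 1 added to each FPKM. The log2 ratio of PDGFRA to PDGFRB ranged from -0.18 to 1.25 over libraries left out, that of FGFR1 to FGFR2 from -1.10 to 1.32 and that of EGFR to ERBB2 from -0.48 to 0.074. The cause of these changes was not tested. The replicate block, 1838 rises and 1741 falls over all genes and 6 falls in the pathway list, kept all 5 calls among the 10 genes; same-numbered libraries are different fetuses, and deviations correlated at -0.0184 to 0.0199 over the 3 pairs. HBEGF, EGFR and PDGFC did not pass, at standard errors of 0.64, 0.46 and 0.11 with 3 fetuses per group. This does not show that these genes were unchanged.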
